A study of Mus musculus with 12 samples.

Results

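The 38 genes described here encode proteins of the lysosome and were chosen by gene symbol: 9 lysosomal membrane proteins, 12 cathepsins and other proteases, 10 glycan-degrading enzymes, 5 lipid-handling proteins, progranulin (Grn) and the transcription factor TFEB (Tfeb). All 38 were found among the 55401 genes of the expression tables. RNA sequencing was performed on adult neural stem/progenitor cells (aNSPCs), which were isolated from the forebrains of C57BL/6 mice aged 8 to 10 weeks and cultured with 20 ng/mL EGF and 20 ng/mL FGF-2. Per the study's methods, exposed cells received 1 mM nicotinamide adenine dinucleotide (NAD+), and differentiation was induced with 1 µM retinoic acid and 5 µM forskolin. The 4 groups of 3 samples each were proliferating Ctrl, proliferating NAD+, differentiation Ctrl and differentiation NAD+. The groups follow the sample titles, since the treatment label reads untreated for all 12 samples. The question addressed was which transcripts of aNSPCs change with NAD+ in each of the 2 conditions.

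Lysosomes are acidic compartments in which proteases, glycosidases and lipases break down material delivered by endocytosis and autophagy. Heavily glycosylated membrane proteins line them, a proton pump (the V-ATPase) acidifies them, and most of their soluble enzymes are carried there by mannose-6-phosphate receptors. TFEB and its relatives bind a short palindromic DNA element near the start of many lysosome genes, and the kinase mTORC1 at the lysosomal surface restrains them. In the adult neural stem cell lineage, quiescent stem cells are known to hold large lysosomes.

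That element is shown here because several of the 38 genes carry it. It was already known to lie near many lysosome genes, so its share among the 38 is no independent finding. The letters TCACGTG, searched on both strands, were present in the window from 250 bases before to 50 bases after the start of 8 of the 33 genes with a window (24.2%), namely Lamp1, Mcoln1, Cln3, Ctsa, Ctsd, Gla, Glb1 and Gaa, against 4.29% of the 27025 genes with a window (3.77% of all 32851 windows). The full palindrome TCACGTGA, every match of which also contains TCACGTG, was present in 5 of the 33 (15.2%), namely Mcoln1, Cln3, Ctsa, Ctsd and Gla, against 1.12% of all genes (0.974% of windows), and the core CACGTG in 10 of the 33 (30.3%) against 8.09% of all genes (7.15% of windows). No window was at hand for Laptm4b, Ctsb, Ctsh, Npc1 and Asah1. The 4 stretches below (RefSeq, GRCm38.p6, read 5′ to 3′ on the strand of the gene, upstream of the start) have the matches on either strand in capitals. The first match began 62 bases before the start of Lamp1, 49 before that of Glb1, 141 before that of Gaa and 228 before that of Gla, and Lamp1 held 4 matches in 82 bases. A match of letters is a description of the sequence and does not show that a factor was bound there.
Lamp1 (chr8:13159079-13159160, plus strand): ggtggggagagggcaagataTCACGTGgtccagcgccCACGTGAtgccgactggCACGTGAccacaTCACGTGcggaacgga
Glb1 (chr9:114401009-114401055, plus strand): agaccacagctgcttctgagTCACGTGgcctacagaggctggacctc
Gaa (chr11:119267802-119267848, plus strand): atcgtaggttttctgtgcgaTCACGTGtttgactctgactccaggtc
Gla (chrX:134601173-134601253, minus strand): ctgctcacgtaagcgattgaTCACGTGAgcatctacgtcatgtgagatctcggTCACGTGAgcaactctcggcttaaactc

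The values are FPKM (fragments mapped to a gene, scaled for the length of its transcript and for the depth of the sample). Per-sample totals ranged from 308828 to 363330 FPKM, and the sequencing depth is unknown, since FPKM rounded to 0.01 hold no read counts. The proliferating Ctrl sample 1 had the highest total. Mitochondrially encoded genes took 16.4 to 19.9% of the total in the proliferating samples and 28.9 to 33.2% under differentiation. Of the cell types checked, the 8 neural stem/progenitor markers were all expressed in every group. Their summed level was 2625 to 2873 FPKM in proliferating Ctrl, 1610 to 2122 in proliferating NAD+, 765 to 851 in differentiation Ctrl and 757 to 839 in differentiation NAD+. Most of the sum in the proliferating groups came from Fabp7, with means of 2107 FPKM in Ctrl and 1317 in NAD+. The 8 astrocyte markers summed to 1117 to 1196 FPKM in proliferating Ctrl and to 911 to 1066 in proliferating NAD+. The 9 oligodendrocyte lineage markers summed to 1296 to 1420 FPKM in proliferating Ctrl and to 1046 to 1075 in proliferating NAD+. The sums of both lists under differentiation, given below, differed from these, and the part of cell composition was not tested. The 12 microglia markers summed to at most 0.61 FPKM in any sample, with no single value above 0.29, and the 5 endothelial markers to at most 0.23. The 8 mural and fibroblast markers summed to 7.65 to 13.5 FPKM, nearly all from Cspg4. It was the only 1 of the 8 with a mean of at least 1 FPKM in any group. The 7 neuron markers summed to 31.3 to 40.7 FPKM.

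The lysosome genes spanned almost 4 orders of magnitude. Psap, which encodes the precursor of the saposins that help lysosomal enzymes reach their lipid substrates, had the highest group mean in each of the 4 groups, from 566 ± 61.7 FPKM (SD, n = 3) in proliferating Ctrl to 1101 ± 29.5 in differentiation NAD+. Lamp1, Ctsd, Laptm4a and Cd63 were also above 100 FPKM on average in every group, and Ctsb joined them under differentiation. At the other end, Ctsk and Ctss had group means under 0.4 FPKM throughout. Ctss, which encodes a cathepsin of microglia and other phagocytes, was 0.85 FPKM in the proliferating Ctrl sample 1 and was listed at 0 in the other 5 proliferating samples. The 38 genes together took 0.640 to 0.704% of the summed FPKM in proliferating Ctrl, 0.695 to 0.808% in proliferating NAD+, 0.950 to 0.990% in differentiation Ctrl and 1.06 to 1.15% in differentiation NAD+, so the ranges of the 2 conditions did not overlap. In bulk samples, fewer cells expressing a gene and less RNA per cell cannot be told apart.

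**Figure D1:**
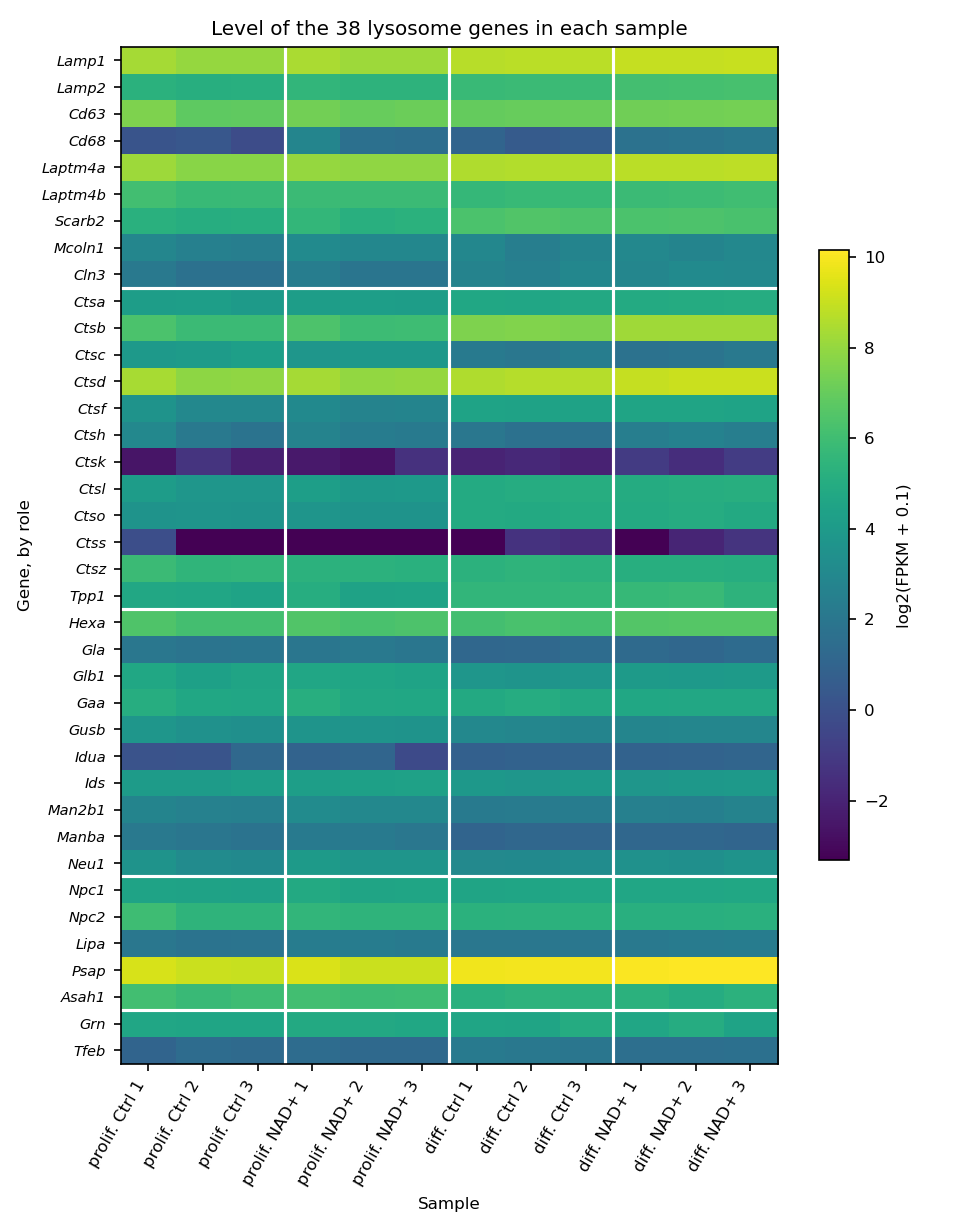
Level of each of the 38 lysosome genes (rows, grouped by role from membrane proteins at the top through proteases, glycan-degrading enzymes and lipid-handling proteins to Grn and Tfeb) in each of the 12 samples (columns), as log2(FPKM + 0.1) on a colour scale. Psap is the brightest row in every sample, and Ctss and Ctsk are the darkest.

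Under differentiation conditions, NAD+ exposure was accompanied by higher levels of 11 of the 38 genes and lower levels of 2. The 11 were the membrane proteins Lamp1, Lamp2, Cd63, Cd68 and Laptm4a, the cathepsins Ctsb, Ctsd and Ctsh, and the glycan-degrading enzymes Hexa, Glb1 and Neu1. The 2 lower genes were the cathepsin Ctsz and Tfeb. Calls were made at an adjusted p under 0.05 from limma on log2(FPKM + 0.1), with Benjamini-Hochberg adjustment over all 19611 genes tested, and all 38 lysosome genes passed the filter of a mean FPKM of at least 0.1. Among all genes tested, 2.27% were called higher and 4.65% lower, whereas 28.9% of the lysosome genes were called higher and 5.26% lower. All genes tested reach down to a mean of 0.1 FPKM, while 36 of the 38 had a mean of at least 1 in both groups. With a minimum mean of 1 FPKM, 514 of 12671 genes were called higher and 1075 lower, 13 and 2 of them lysosome genes. The 38 genes were chosen with earlier results of these data known. The median log2 fold change was 0.14 over the 38 genes and −0.08 over all genes, and 28 of the 38 were positive, against 38.2% of all genes. Samples of the 2 groups did not overlap, with NAD+ above Ctrl, for 18 of the 38 genes, where 9.68% of all genes behaved this way, and with NAD+ below Ctrl for 4 of the 38, where 21.1% of all genes did.

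The number of calls rested on all 6 samples. With 1 sample left out in turn, 1 to 5 lysosome genes were called higher and 0 lower, while over all genes the calls fell from 445 higher and 912 lower to 137 to 259 higher and 191 to 498 lower. The fewest were left without differentiation Ctrl sample 3 (1 gene, Ctsb). Without differentiation Ctrl sample 1, Ctrl sample 2, NAD+ sample 1, NAD+ sample 2 and NAD+ sample 3, the counts were 3, 4, 5, 4 and 3. Ctsb was called in all 14 alternative fits, Cd68 in 13, Ctsd in 11 and Hexa in 10, whereas Lamp1 and Laptm4a were called in 4 and Neu1 in 3. Of the 2 lower genes, Tfeb was called in 6 of the 14 and Ctsz in 5. The log2 fold change of each of the 13 genes kept its sign in all 14 fits. Median-ratio scaling, which sets the median of each sample's ratios to the mean sample to be equal, moved the split of all calls from 445 higher and 912 lower to 613 and 532, and quantile normalization, which gives the samples the same distribution, to 580 and 581. Under the former 13 lysosome genes were called higher, with Psap and Laptm4b added, and 1, Tfeb, lower. Under the latter the counts were 10 and 2, with Psap added and Lamp1 and Laptm4a lost.

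**Figure D2:**
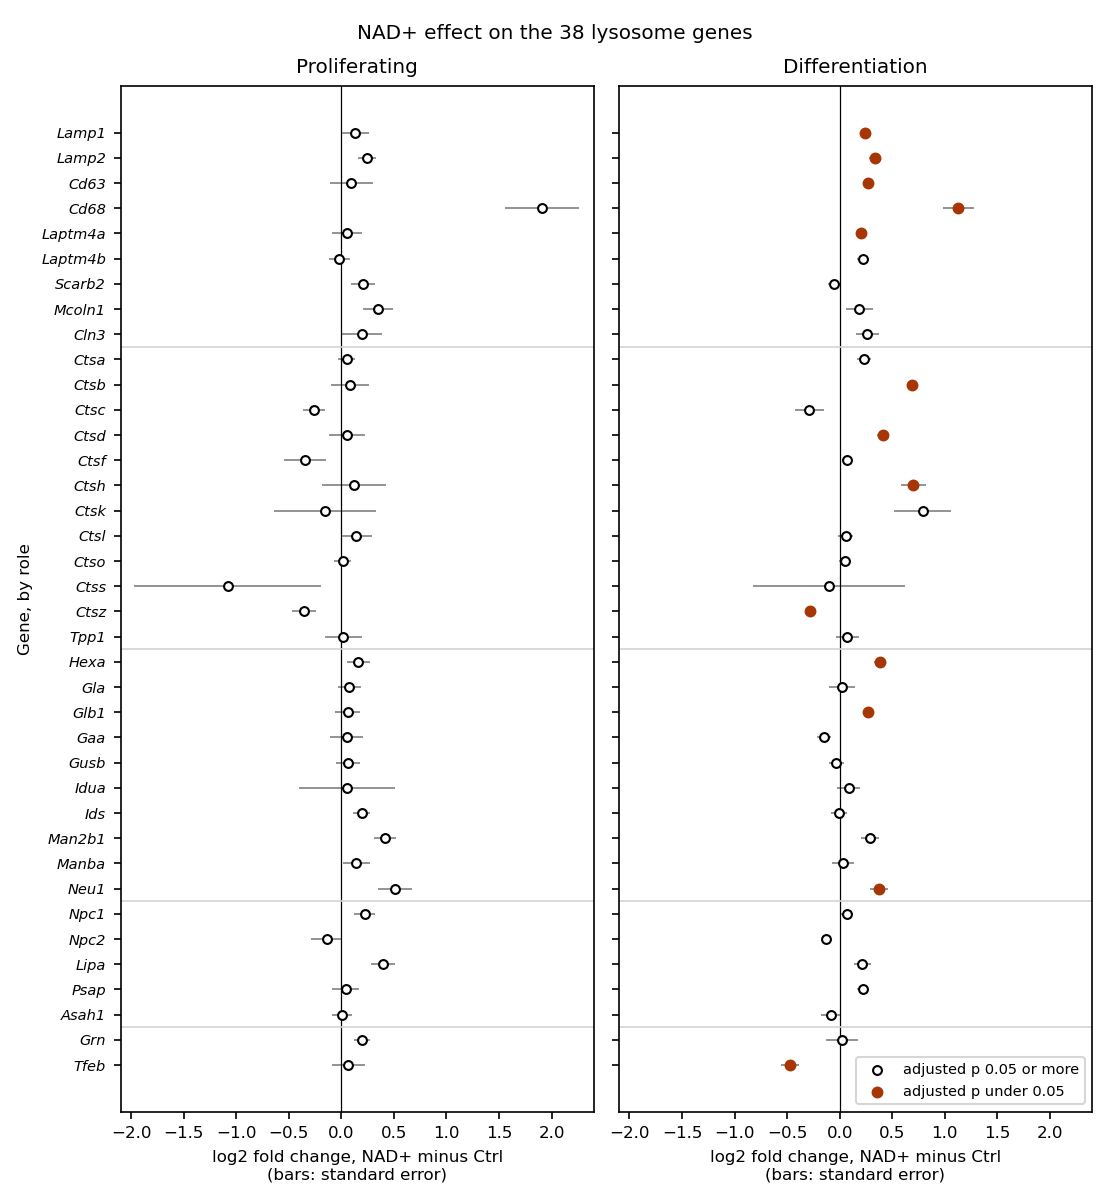
Log2 fold change of NAD+ against Ctrl (horizontal axis, on log2(FPKM + 0.1), bars are standard errors, n = 3 samples per group) for the 38 lysosome genes under proliferating (left) and differentiation (right) conditions. Filled points have a limma adjusted p under 0.05: none on the left, 11 to the right of 0 and 2 to the left of it on the right.

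Among the membrane proteins, 5 of 9 were called higher under differentiation. Lamp2 encodes a major glycoprotein of the lysosomal membrane that is needed for fusion with autophagosomes, and it lies on chromosome X from 38401357 to 38456454 (mm10). Its levels were 55.4, 57.4 and 58.8 FPKM in the Ctrl samples and 68.7, 72.5 and 75.6 in the NAD+ samples. Every NAD+ sample was above every Ctrl sample, and the fold change was 1.26 (log2 0.34 ± 0.05 SE, adjusted p = 0.0194). Lamp1, its more abundant paralog on chromosome 8 from 13159161 to 13175338, was at 416, 428 and 435 FPKM in Ctrl and at 499, 500 and 516 in NAD+. The groups were again separate, although the change was only 1.18-fold (log2 0.24 ± 0.04, adjusted p = 0.0292). Under quantile normalization the log2 change of Lamp1 was 0.07 with an adjusted p of 0.416.

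Cd68, a heavily glycosylated protein of endosomes and lysosomes best known as a macrophage marker (chromosome 11 from 69664213 to 69666153), showed the largest ratio of the 13 called genes at a low level. It was at 1.92, 1.34 and 1.51 FPKM in differentiation Ctrl and at 3.30, 3.50 and 3.91 in differentiation NAD+. The samples did not overlap, and the fold change was 2.25 (log2 1.13 ± 0.15, adjusted p = 0.0126). Without differentiation Ctrl sample 3 the adjusted p was 0.0514. The 12 microglia markers, by contrast, summed to 0.05 to 0.51 FPKM in differentiation Ctrl and to 0.06 to 0.43 in differentiation NAD+, with 1 and 4 of them at 0 in all 3 samples of the group, and none passed the filter on low values there.

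Cd63, a tetraspanin of late endosomes and exosomes (chromosome 10 from 128900989 to 128912822), was at 125, 129 and 135 FPKM in Ctrl and at 152, 154 and 164 in NAD+. This was a 1.21-fold difference without overlap (log2 0.27 ± 0.05, adjusted p = 0.0323). Laptm4a, a small protein spanning the lysosomal membrane (chromosome 12 from 8921664 to 8938742), was at 371, 383 and 388 FPKM in Ctrl and at 433, 435 and 446 in NAD+. Its change was the smallest of the genes called higher, at 1.15-fold (log2 0.20 ± 0.04, adjusted p = 0.0473), and under quantile normalization it was 0.11 on the log2 scale with an adjusted p of 0.206. The other 4 membrane genes were not called. Laptm4b had a log2 change of 0.22 (adjusted p = 0.0624) with samples that did not overlap. Cln3, mutated in a childhood form of lysosomal storage disease of the brain, had 0.26 (adjusted p = 0.211), the calcium channel Mcoln1 0.19 (adjusted p = 0.431) and Scarb2, the receptor that carries glucocerebrosidase to the lysosome, −0.06 with a 95% interval of −0.19 to 0.08.

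Of the 12 proteases, 3 were called higher and 1 lower. Ctsb (cathepsin B, a cysteine protease, chromosome 14 from 63122462 to 63145923) had the smallest p of all 38 genes. Its levels were 184, 193 and 179 FPKM in Ctrl and 296, 305 and 294 in NAD+. The 3 samples of each group lay close together and more than 100 FPKM apart from the other group, a 1.61-fold difference (log2 0.69 ± 0.05, adjusted p = 0.00333). In the annotation, 12.8% of the exonic bases of Ctsb overlap those of Fdft1, an enzyme of cholesterol synthesis on the opposite strand. Fdft1 had lower values in the NAD+ samples, with 26.1, 17.1 and 26.0 FPKM in Ctrl and 14.9, 11.0 and 11.0 in NAD+, and since strand-specific counting is not stated, reads from the shared bases cannot be told apart.

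Ctsd (cathepsin D, an aspartic protease, chromosome 7 from 142375911 to 142388038) was at 375, 407 and 396 FPKM in Ctrl and at 497, 528 and 547 in NAD+. All NAD+ samples were above all Ctrl samples, by 1.33-fold (log2 0.42 ± 0.06, adjusted p = 0.0140). Ctsd shares 34.4% of its exonic bases with Gm49369, a gene model on the same strand, which was at 28.6, 1.31 and 5.19 FPKM in differentiation Ctrl and listed at 0 in the 3 differentiation NAD+ samples. How reads from the shared exons were divided between the models was not tested. Of the other genes called for NAD+, Hexa shares 12.8% of its exonic bases with a neighbour (Tmem202), Lamp1 9.3% (Grtp1), Glb1 5.5% (Tmppe) and Ctsz 0.7% (Nelfcd). Ctsh (cathepsin H, an aminopeptidase, chromosome 9 from 90054152 to 90076089) was at 3.98, 3.16 and 3.10 FPKM in Ctrl and at 5.40, 6.12 and 5.24 in NAD+. The difference was 1.64-fold with no overlap (log2 0.70 ± 0.12, adjusted p = 0.0255).

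Ctsz (cathepsin Z, a carboxypeptidase, chromosome 2 from 174427493 to 174439039) went in the opposite direction. It was at 40.1, 43.7 and 40.7 FPKM in Ctrl and at 34.3, 34.7 and 33.2 in NAD+. The NAD+ samples were all below the Ctrl samples, at 0.821 of their mean (log2 −0.28 ± 0.05, adjusted p = 0.0277), and under median-ratio scaling the log2 change was −0.20 with an adjusted p of 0.0979. The other 8 proteases were not called. Ctsa, which also protects neuraminidase and beta-galactosidase in a complex, had a log2 change of 0.23 (adjusted p = 0.0862) with no overlap, and Ctsk had a ratio of 2.23 at 0.14 to 0.43 FPKM (adjusted p = 0.144). Ctsc, Ctsf, Ctsl, Ctso, Ctss and Tpp1 had log2 changes from −0.29 to 0.07, with 95% intervals as narrow as −0.04 to 0.18 for Ctsf and as wide as −1.83 to 1.62 for Ctss.

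Among the 10 glycan-degrading enzymes, 3 were called higher. Hexa (the alpha subunit of beta-hexosaminidase, which degrades gangliosides, chromosome 9 from 59539540 to 59565109) was at 69.7, 77.4 and 71.0 FPKM in Ctrl and at 91.7, 97.5 and 95.5 in NAD+. The groups were well apart, by 1.31-fold (log2 0.38 ± 0.06, adjusted p = 0.0152). Glb1 (beta-galactosidase, chromosome 9 from 114401076 to 114474898) was at 13.2, 12.6 and 13.3 FPKM in Ctrl and at 15.8, 15.2 and 16.2 in NAD+. Every NAD+ sample was higher, by 1.21-fold (log2 0.27 ± 0.05, adjusted p = 0.0349).

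Neu1 (neuraminidase 1, which removes sialic acids, chromosome 17 from 34931253 to 34935953) was at 8.10, 8.44 and 9.22 FPKM in Ctrl and at 11.1, 10.3 and 12.1 in NAD+. The samples did not overlap, with a 1.30-fold difference (log2 0.37 ± 0.08) just inside the threshold at an adjusted p of 0.0499. The gene just outside it was Psap, at 0.0580. The other 7 glycan-degrading enzymes were not called. Man2b1, an alpha-mannosidase, had a log2 change of 0.28 (adjusted p = 0.108) without overlap, and Gaa, which degrades glycogen, had −0.15 (adjusted p = 0.243), also without overlap. Gla, Gusb, Idua, Ids and Manba, which degrade globosides, glucuronides, glycosaminoglycans and mannosides, had log2 changes from −0.03 to 0.09.

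None of the 5 lipid-handling genes was called under differentiation. Psap was at 918, 953 and 966 FPKM in Ctrl and at 1076, 1095 and 1134 in NAD+. Its samples did not overlap, but its adjusted p was 0.0580 (log2 0.22 ± 0.05), and it passed under median-ratio scaling and quantile normalization. Lipa, which hydrolyses cholesteryl esters and triglycerides, had a log2 change of 0.21 (adjusted p = 0.172). The cholesterol carriers Npc2 and Npc1 had −0.13 (adjusted p = 0.168) and 0.07 (adjusted p = 0.522), and the ceramidase Asah1 had −0.08 (adjusted p = 0.622). Grn, which encodes progranulin, a secreted and lysosomal glycoprotein, was at 24.2, 23.4 and 30.6 FPKM in Ctrl and at 25.0, 31.9 and 22.7 in NAD+. Its samples overlapped throughout, with a 95% interval of the log2 change from −0.35 to 0.39.

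Tfeb itself (chromosome 17 from 47737030 to 47792419) was at 4.43, 4.16 and 3.85 FPKM in differentiation Ctrl and at 2.91, 2.93 and 3.05 in NAD+. The NAD+ samples were all lower and close to each other, at a ratio of 0.715 (log2 −0.47 ± 0.09, adjusted p = 0.0282). Its adjusted p reached 0.0977 in the alternative fits, and the call was kept in 6 of 14. Of the 8 genes with TCACGTG in the window, 3 (Lamp1, Ctsd and Glb1) were called higher, where 11 of all 38 were. The log2 changes of Ctsa, Cln3, Mcoln1, Gla and Gaa, from 0.26 to −0.15, were not called.

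**Figure D3:**
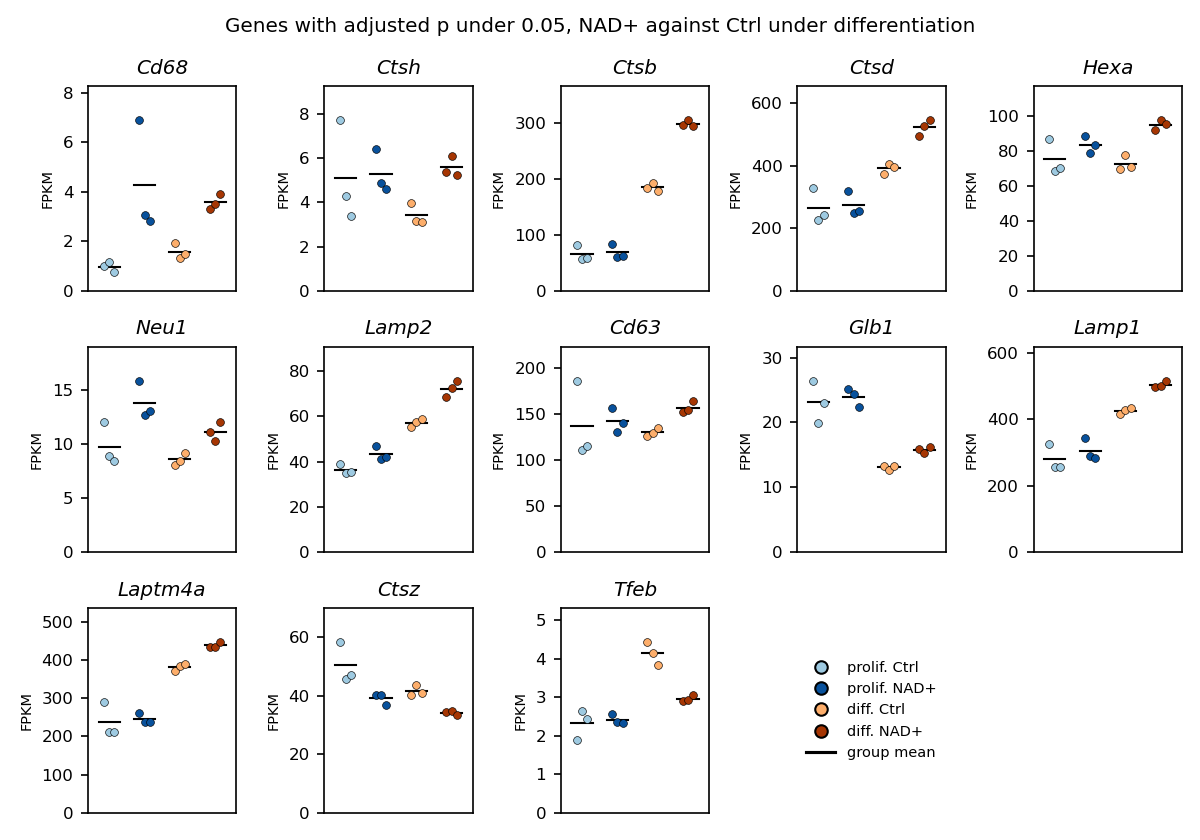
FPKM of the 13 lysosome genes with an adjusted p under 0.05 for NAD+ against Ctrl under differentiation, 1 panel per gene with its own vertical axis starting at 0. Each point is 1 sample, the 4 groups stand from left to right (proliferating Ctrl, proliferating NAD+, differentiation Ctrl, differentiation NAD+), and the line is the group mean. In each panel the differentiation NAD+ points lie wholly above the differentiation Ctrl points, except for Ctsz and Tfeb, where they lie wholly below.

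Markers of the cell types that aNSPCs give rise to also differed between these groups. The 8 astrocyte markers summed to 1644 to 1766 FPKM in differentiation Ctrl and to 1996 to 2108 in differentiation NAD+, with 3 of 8 called higher (Gfap, Slc1a2 and Slc1a3) and 2 lower (Aldh1l1 and Aldoc). The 9 oligodendrocyte lineage markers summed to 561 to 578 FPKM in Ctrl and to 417 to 436 in NAD+. Among single neural stem/progenitor markers, Vim was called higher (log2 0.75) and Hes5 (log2 −0.89) and Pax6 (log2 −0.39) lower, while the summed level of that list overlapped between the groups. Of the oligodendrocyte lineage, Cnp was called lower (log2 −0.70). None of the 7 neuron markers was called, and none had an unadjusted p under 0.05 in limma. Their part in the changes of the lysosome genes was not tested.

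Under proliferating conditions, no lysosome gene was called in either direction. Over all 18597 genes tested, 0.0484% were called higher and 0.0968% lower. At an unadjusted p under 0.05 the same limma fit held 9 of the 38 lysosome genes, against 15.4% of all genes. The median log2 fold change was 0.07 both over the 38 genes and over all genes, and 31 of the 38 were positive, against 59.7% of all genes. Under median-ratio scaling 20 of the 38 were positive, and the medians over the 38 and over all genes were both 0.01. The same scaling moved all calls from 9 higher and 18 lower to 7 and 26. Without this scaling, the median over the 38 moved with single samples. It was 0.21 without proliferating Ctrl sample 1 and 0.02 without NAD+ sample 1. In these samples 30 and 28 of the 38 genes, in this order, had the highest value of the 3 samples of their group. The median was 0.04 without Ctrl sample 2 or Ctrl sample 3, 0.12 without NAD+ sample 2 and 0.13 without NAD+ sample 3. The samples of the 2 groups did not overlap for 9 genes with NAD+ above Ctrl, where 15.5% of all genes behaved this way, and for 2 with NAD+ below Ctrl (Ctsc and Ctsz), where 8.59% did.

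Since fewer than 8 genes were called, the 8 with the smallest unadjusted p were taken, and none of their differences passed the adjustment. Cd68 again had the largest ratio, with 1.01, 1.16 and 0.77 FPKM in Ctrl and 6.89, 3.07 and 2.83 in NAD+. The NAD+ samples were all higher, most of all NAD+ sample 1, with a ratio of 4.35 (log2 1.91 ± 0.35, adjusted p = 0.103). The 12 microglia markers summed to 0 to 0.61 FPKM in these Ctrl samples and to 0.10 to 0.30 in NAD+. By the rule of an unadjusted p under 0.05 and a ratio over 2, Cd68 was the only lysosome gene past the threshold here, and Cd68 and Ctsk were past it under differentiation. All 3 of these differences were upward. Over the 18597 genes tested here, 297 were past it upward and 262 downward. Under differentiation it was 267 and 528 of 19611.

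Man2b1 (chromosome 8 from 85083270 to 85098282) was at 6.62, 5.86 and 5.73 FPKM in proliferating Ctrl and at 8.89, 7.83 and 7.67 in NAD+ (log2 0.42 ± 0.11, adjusted p = 0.168). Neu1 was at 12.1, 8.87 and 8.40 in Ctrl and at 15.9, 12.7 and 13.1 in NAD+ (log2 0.51 ± 0.16, adjusted p = 0.233). Both glycosidases lay higher in each NAD+ sample than in any Ctrl sample. Lipa (chromosome 19 from 34492318 to 34527474) was at 3.88, 3.35 and 3.58 FPKM in Ctrl and at 4.94, 4.94 and 4.43 in NAD+ (log2 0.40 ± 0.11, adjusted p = 0.196). Lamp2 was at 38.9, 35.1 and 35.4 in Ctrl and at 46.9, 41.1 and 42.0 in NAD+ (log2 0.25 ± 0.09, adjusted p = 0.262). These, too, were separate between the groups, with the highest Ctrl value in sample 1 for both.

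Grn (chromosome 11 from 102430315 to 102437048) was at 24.7, 23.8 and 24.0 FPKM in proliferating Ctrl and at 28.8, 28.1 and 26.3 in NAD+ (log2 0.20 ± 0.07, adjusted p = 0.280). Mcoln1, the calcium channel of the lysosomal membrane (chromosome 8 from 3500457 to 3515232), was at 7.24, 5.79 and 5.40 in Ctrl and at 8.65, 7.43 and 7.33 in NAD+ (log2 0.35 ± 0.14, adjusted p = 0.305). Its lowest NAD+ value was only just above the highest Ctrl value. Ctsz was the exception among the 8, with 58.2, 45.5 and 47.0 FPKM in Ctrl and 40.1, 40.2 and 36.8 in NAD+ (log2 −0.36 ± 0.11, adjusted p = 0.225). Every NAD+ sample was thus below every Ctrl sample of its condition, although the difference passed the adjustment only under differentiation. For Ctsb, the gene with the smallest p under differentiation, the proliferating samples overlapped, at 81.1, 57.1 and 58.5 FPKM in Ctrl and 83.4, 61.2 and 62.8 in NAD+, with a 95% interval of the log2 change from −0.34 to 0.50.

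Whether NAD+ acted differently in the 2 conditions was tested as an interaction in a limma fit of all 12 samples. None of the 38 lysosome genes passed in either direction, and 2 of them had an unadjusted p under 0.05. Over the 19498 genes tested, 0.221% were called higher and 0.246% lower, with 15.5% at an unadjusted p under 0.05, and median-ratio scaling moved the counts from 43 higher and 48 lower to 70 and 24. Ctsb had an NAD+ effect larger by 0.61 on the log2 scale under differentiation (95% interval 0.17 to 1.05, adjusted p = 0.199). Tfeb had an effect lower by the same measure, at −0.54 (95% interval −0.92 to −0.15, adjusted p = 0.198). For Cd68 the difference was −0.78 with an interval from −1.70 to 0.13. Calls under differentiation and none under proliferating conditions therefore do not show that the lysosome genes responded differently. For the 13 called genes the SE of the NAD+ effect was larger under proliferating conditions in each case.

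Between differentiation and proliferating conditions, called membrane proteins were higher under differentiation, and proteases and lipid-handling proteins were called in both directions. This comparison can be made in the Ctrl samples and in the NAD+ samples, which are separate sets of 6. In the Ctrl samples 14 of the 38 genes were called higher and 10 lower, against 25.0% and 31.6% of all genes, and in the NAD+ samples 13 were called higher and 8 lower, against 20.8% and 37.6%. All 13 genes higher and all 8 lower in the NAD+ samples were called in the same direction in the Ctrl samples, which makes 92.9% and 80% of the Ctrl calls. The median log2 change over all genes was −0.06 in Ctrl and −0.20 in NAD+, and 0.06 and 0.05 under median-ratio scaling, which moved all calls in the NAD+ samples from 4050 higher and 7336 lower to 5614 and 5388. The 2 conditions were deposited in 2 tables, so condition and table cannot be told apart.

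Membrane proteins and proteases accounted for 12 of the 14 genes called higher in the Ctrl samples. Lamp1, Lamp2, Laptm4a, Scarb2 and Cln3 were called higher in both sets of samples and no membrane gene was called lower, also under both other scalings. Scarb2 rose from 36.7, 34.0 and 34.6 FPKM in proliferating Ctrl to 81.6, 89.9 and 82.1 in differentiation Ctrl, a 2.41-fold difference far larger than the spread of either group (log2 1.27 ± 0.09, adjusted p = 9.59e-07). Of the proteases, Ctsa, Ctsb, Ctsd, Ctsf, Ctsl, Ctso and Tpp1 were called higher in both sets. Ctsa shares 17.4% of its exonic bases with Pltp and Neurl2 on the opposite strand. Pltp averaged 7.55 FPKM in proliferating Ctrl and 26.6 in differentiation Ctrl, and Neurl2 4.45 and 3.68. Gm49369, which overlaps Ctsd, averaged 0 and 11.7 in the same groups. Ctsl shares 32.9% with Gm47123 and Gm49230, which averaged under 0.1 FPKM in every group. The part of shared reads was not tested. Ctsb, with 81.1, 57.1 and 58.5 FPKM against 184, 193 and 179 in Ctrl, had a log2 change of 1.52 ± 0.14 in Ctrl and 2.12 ± 0.14 in NAD+. Ctso, a little studied cysteine protease, was nearly constant within groups, with 12.1, 12.4 and 12.2 FPKM in proliferating Ctrl and 29.5, 28.8 and 30.8 in differentiation Ctrl (log2 1.27 ± 0.06, adjusted p = 4.66e-08). Ctsf and Ctsl, both cysteine proteases, had log2 changes of 1.29 and 1.13 in Ctrl.

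Ctsc (dipeptidyl peptidase 1, which activates serine proteases by trimming their N termini) had the largest change of all 38 genes in Ctrl, and it was downward. It was at 15.3, 16.4 and 19.2 FPKM in proliferating Ctrl and at 4.50, 3.95 and 5.21 in differentiation Ctrl, and at 13.6, 14.5 and 14.4 against 3.31, 3.54 and 4.26 in the NAD+ samples. The differentiation samples were all far below the proliferating samples, with log2 changes of −1.88 ± 0.13 and −1.91 ± 0.13.

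None of the 10 glycan-degrading enzymes was called higher, and Gla, Glb1, Gusb, Ids, Man2b1 and Manba were called lower in both sets, but the scaling mattered here. Hexa was called higher in the NAD+ samples under median-ratio scaling, and under quantile normalization Hexa was called higher in both sets and Gaa in Ctrl. Gla, Gusb and Manba were called lower in both sets under each scaling. Glb1 fell from 26.4, 20.0 and 23.0 FPKM in proliferating Ctrl to 13.2, 12.6 and 13.3 in differentiation Ctrl (log2 −0.81 ± 0.09, adjusted p = 2.27e-05). Manba, a beta-mannosidase, fell from 4.33, 3.84 and 3.41 to 1.89, 2.19 and 2.06 (log2 −0.88 ± 0.11, adjusted p = 6.05e-05). In both genes the conditions were far apart. Gla and Gusb had log2 changes of −0.66 and −0.69 in Ctrl, and Man2b1 and Ids had smaller ones, of −0.34 and −0.28. The last pair was not called in Ctrl under either other scaling, and the change of Ids was 0.030 under quantile normalization. Hexa, Gaa, Idua and Neu1 were called in neither set on the values as deposited.

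Of the lipid-handling genes, Psap was higher under differentiation in both sets (log2 0.75 ± 0.10 in Ctrl) and Asah1 lower (log2 −0.65 ± 0.10), while Npc1 and Lipa were not called in either. Under quantile normalization the change of Asah1 in Ctrl was −0.16 with an adjusted p of 0.194. Npc1 was called higher in both sets under each of the other scalings, and Lipa in Ctrl under median-ratio scaling. Npc2 was called lower only in Ctrl, at an adjusted p of 0.0445, and Ctsz likewise, at 0.0235. Under quantile normalization both changes were upward, by 0.16 and 0.22. Tfeb was at 1.90, 2.65 and 2.44 FPKM in proliferating Ctrl against 4.43, 4.16 and 3.85 in differentiation Ctrl (log2 0.82 ± 0.12, adjusted p = 0.000191). In the NAD+ samples it was at 2.57, 2.36 and 2.34 against 2.91, 2.93 and 3.05 (log2 0.28 ± 0.12, adjusted p = 0.0722), where it was called higher under both other scalings. The test of the difference between the sets is the interaction given above, with an adjusted p of 0.198. Cd68, Cd63, Ctsh, Hexa and Neu1, which were called for NAD+ under differentiation, were not called between the conditions in either set on these values.

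**Figure D4:**
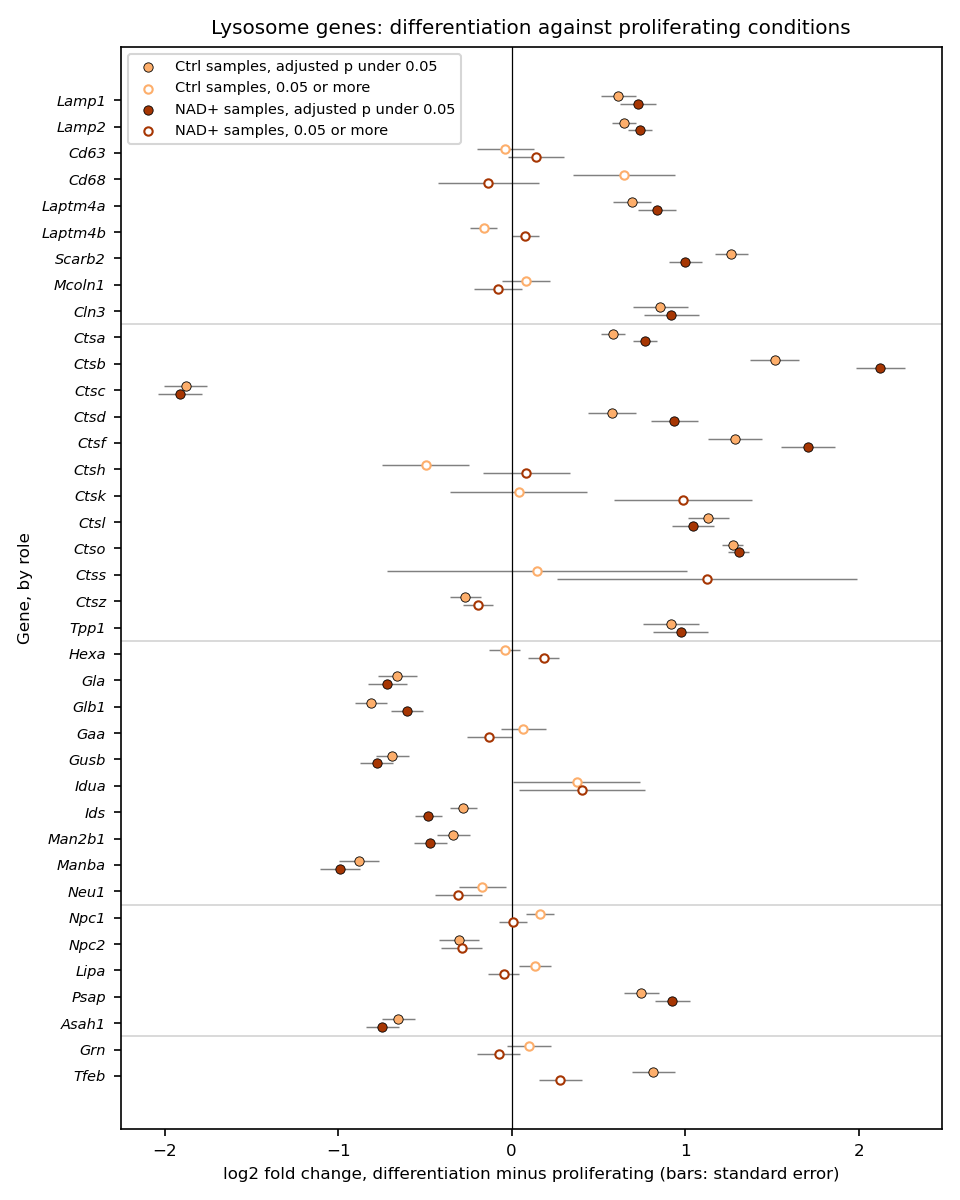
Log2 fold change of differentiation against proliferating conditions (horizontal axis, on log2(FPKM + 0.1), bars are standard errors) for the 38 lysosome genes, in the Ctrl samples (light) and in the NAD+ samples (dark), 3 samples per group. Filled points have a limma adjusted p under 0.05. On these values called membrane proteins lie to the right of 0 and called glycan-degrading enzymes to the left, except that other scalings place Hexa and Gaa to the right as well, and the proteases spread from Ctsc at −1.88 to Ctsb at 1.52 in Ctrl.

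Other genes of the pathway were taken from lists. None of the 18 V-ATPase subunits was called for NAD+ under either condition, with a median log2 change of 0.10 under proliferating conditions and 0.05 under differentiation, and 1 and 6 of them at an unadjusted p under 0.05, where 15.4% and 24.2% of all genes were. All NAD+ samples were above all Ctrl samples for 1 of the 18 under proliferating conditions (15.5% of all genes) and for 6 under differentiation (9.68%). They were all below for 1 and 0, where 8.59% and 21.1% of all genes were. Between the conditions in Ctrl, 9 of the 18 subunits were called lower and 1 higher, against 31.6% and 25.0% of all genes. Of the 13 genes of mannose-6-phosphate tagging and sorting, 1 was called higher for NAD+ under differentiation and 1 lower. Over all genes the shares were 2.27% and 4.65%. M6pr, a mannose-6-phosphate receptor, had a log2 change of 0.23 (adjusted p = 0.0485), and Gga1, an adaptor that sorts such receptors at the trans-Golgi network, had −0.38 (adjusted p = 0.0464). None of the 13 was called under proliferating conditions, where 3 had an unadjusted p under 0.05, against 15.4% of all genes. Under differentiation 6 of the 13 did, against 24.2% of all genes. The groups did not overlap, with NAD+ above Ctrl, for 6 of the 13 under proliferating conditions (15.5% of all genes) and for 5 under differentiation (9.68%). With NAD+ below Ctrl it was 0 and 1, where 8.59% and 21.1% of all genes were.

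Of the 20 tested genes of a list of 21 with the TFEB relatives and mTORC1 regulators, none was called for NAD+, with 2 at an unadjusted p under 0.05 under proliferating conditions and 4 under differentiation, against 15.4% and 24.2% of all genes. Between the conditions in Ctrl, where 31.6% of all genes were called lower and 25.0% higher, 9 of the 20 were called lower, among them the 5 Lamtor subunits that tether mTORC1 to the lysosome, and 3 higher. None of the 21 autophagy genes was called lower for NAD+. Under proliferating conditions and under differentiation 1 each was called higher, where 0.0484% and 2.27% of all genes were. It was Map1lc3b, a ubiquitin-like protein of the autophagosome membrane, under proliferating conditions (1.98-fold, log2 0.98 ± 0.11, adjusted p = 0.0466). Under differentiation it was Sqstm1, an autophagy receptor (1.33-fold, log2 0.41 ± 0.09, adjusted p = 0.0465). Under proliferating conditions 7 of the 21 had an unadjusted limma p under 0.05 (15.4% of all genes), and under differentiation 4 (24.2%). All NAD+ samples were above all Ctrl samples for 11 under proliferating conditions (15.5% of all genes) and for 6 under differentiation (9.68%). They were all below for 0 and 1, where 8.59% and 21.1% of all genes were. Of 8 cathepsin inhibitors, none of the 5 tested under proliferating conditions and none of the 4 tested under differentiation was called for NAD+, with 1 and 2 at an unadjusted p under 0.05, and between the conditions in Ctrl Cst3 and Serpina3n were called higher.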

How the data were processed

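RNA was sequenced from 12 aNSPC samples, 3 for each of 4 groups. Per the study's methods and the submitters' processing notes, the authors aligned the reads with Hisat2 v2.0.5 to the mouse genome mm10, kept unique alignments, counted them with FeatureCounts v2.0.1, and deposited FPKM values per sample, in 1 table for each condition. The program that computed FPKM is not given in the sources used here. The library kit is not stated to mark strand. The tables also hold the authors' own comparison (fold change, its log2, p- and q-values, direction and significance), which was set aside. Depth is unknown, so no counting error can be given.

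FPKM were used as deposited, 0.1 was added, and log2 was taken, which understates the changes of low genes. The filter kept genes whose FPKM averaged 0.1 or more over the fitted samples. NAD+ was compared with Ctrl by limma 3.58.1 in R 4.3.3 (moderated variance with a trend, two-sided) within the 6 samples of each condition. The difference of the NAD+ effect and differentiation against proliferating conditions were contrasts of a fit of all 12 samples, across the 2 tables. p-values were adjusted by the Benjamini-Hochberg method over all genes tested and called under 0.05. An exact permutation test of 3 against 3 samples cannot go below 0.10. The methods call the samples biological repeats, and whether they came from separate mice is not stated. If not, the p-values measure only the spread between these samples. The fits were also run on simulated data with independent normal noise for each gene and no replicate effect. Such data cannot test how a replicate block, the scaling or single samples move the calls.

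The members, role groups and other lists were chosen with earlier results of these data known. Per-sample values were given for members called in an NAD+ comparison, and where fewer than 8 were called, for the 8 with the smallest unadjusted p. A gene of another list was named with values only if called for NAD+. Any other gene was chosen after its values were seen. Gene positions and exon overlaps were read from GENCODE M21 (mm10), and promoter windows from RefSeq (GRCm38.p6), with windows for 33 of the 38 genes. Alternatives were other added values (1 and 0.01), no minimum and a minimum of 1 FPKM, median-ratio scaling, quantile normalization, the replicate number as a block, no variance trend, leaving out each sample, and a rule of an unadjusted p under 0.05 with a ratio over 2. Some single cell type markers are not reported here.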

Additional observations from a re-analysis of the deposited data

How the results depend on the processing

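For NAD+ under differentiation, 11 lysosome genes were called higher and 2 lower. The count called higher was 7 with no minimum FPKM, 6 with the replicate block, 2 without the variance trend, 2 by unadjusted p with a ratio over 2, and 1 to 5 with 1 sample left out. The count called lower was 1 with median-ratio scaling and 0 with the block, without the trend, by unadjusted p with a ratio over 2, and with any sample left out. Leaving out a sample gives a group of 2, and fewer samples are part of that construction; the cause of the other changes was not tested. The 182 log2 fold changes of the 13 called genes over 14 alternatives held 0 reversed signs, and 85 were no longer past the threshold.

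Under proliferating conditions the count was 1 higher, in place of 0, by unadjusted p with a ratio over 2, and 0 under the other alternatives. In no alternative was a lysosome gene called for the difference of the NAD+ effect. For differentiation against proliferating conditions in Ctrl, the 10 genes called lower became 6 with median-ratio scaling and 5 with quantile normalization. The 14 called higher became 17 and 21. In the NAD+ samples quantile normalization gave 20 higher in place of 13 and 5 lower in place of 8, and median-ratio scaling gave 18 and 7. Under quantile normalization, in Ctrl, the log2 changes of Ctsz, Npc2 and Ids were 0.22, 0.16 and 0.030, reversed from −0.27, −0.30 and −0.28.

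Same-numbered samples correlated around their group means by 0.111, 0.0215 and 0.0529 under proliferating conditions and by 0.0410, 0.0432 and 0.0257 under differentiation. All were positive. Different-numbered samples correlated by −0.112 to 0.0734 under proliferating conditions and by −0.0397 to −0.00249 under differentiation. The numbers were not taken as pairs because not every same-numbered pair was over 0.1, a cutoff that was not tested. With the replicate number as a block, 6 lysosome genes were called higher for NAD+ under differentiation and 0 lower. Under that block the calls over all genes went from 9 higher and 18 lower to 0 under proliferating conditions, and from 445 higher and 912 lower to 275 and 483 under differentiation. The NAD+ calls of Map1lc3b, Sqstm1, M6pr and Gga1 were also lost under it, with adjusted p of 0.124, 0.0556, 0.0772 and 0.0669. Each differentiation sample correlated best with its own number, and not all proliferating samples did. Depth is unknown, so differences of genes under about 1 FPKM (Ctsk, Ctss) cannot be set against counting error.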
